A study of Mus musculus with 33 samples.

Results

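Naive pluripotency transcription factors are the regulators that hold mouse embryonic stem (ES) cells in the state of the early epiblast. The 10 genes described here were taken by name from the 24391 genes of the deposited count table, and were Klf2, Klf4, Klf5, Esrrb, Nanog, Zfp42, Tfcp2l1, Tbx3, Prdm14 and Nr5a2. All 10 passed the filter on low counts, as did 15179 genes in all. Their RNA was followed by polyA RNA-seq in 12 libraries of ES cells of the strain background CAST/Ei x 129/Sv/Jae. A total of 6 libraries came from wildtype (WT) cells and 6 from cells of the genotype RepB, which is named after Repeat B of the noncoding RNA Xist. The labels do not describe the RepB edit, its allele or the number of clones. Each genotype had 1 library at day 0, in undifferentiated cells on irradiated feeder fibroblasts with LIF and serum, and 1 at each of days 5, 6, 7, 8 and 10 of differentiation without LIF. For differentiation both lines were freed of feeders, grown as embryoid bodies in suspension for 4 days and then plated on gelatin. The other 21 of the 33 samples of the series, all of chromatin, were not analysed here.

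In mouse ES cells these factors form a network that sits on top of the core factors Oct4 (Pou5f1) and Sox2 and that is fed by the cytokine LIF. LIF acts through the kinase Jak1 and the factor Stat3, which switches on Klf4 and Tfcp2l1, while Tbx3 lies downstream of PI3K and MAPK signals and supports Nanog. When LIF is withdrawn the network is taken down, and cells pass through a formative state, marked by Otx2 and Fgf5, toward the germ layers. Several members have other duties later in development: Tbx3 in heart, limb and extraembryonic endoderm, Klf4 and Klf5 in epithelia, Prdm14 in germ cells, and Nr5a2 in endoderm, liver and pancreas.

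The members are regulated through distant enhancers as well as promoters, of which only the promoters were read here. RefSeq promoters of the build GRCm38.p6 were matched by symbol for 7 of the 10 members, in 10 windows. The 250 bases before the start site were searched on both strands for a KLF box (CCACNCCC), the element shared by Esrrb and Nr5a2 (CAAGGTCA), an octamer (ATGCAAAT), a composite Oct4 and Sox2 core (GCATNACAA), a Stat element (TTCCNGGAA) and a TATA box (TATAAA). In all 4 windows below, letters that match one of these are in capitals. Zfp42, Nanog and Tfcp2l1 are shown because their RNA fell over the course and differed between the lines, and Klf4 because its course was another one.
Zfp42 (chr8:43307010-43307259, minus strand): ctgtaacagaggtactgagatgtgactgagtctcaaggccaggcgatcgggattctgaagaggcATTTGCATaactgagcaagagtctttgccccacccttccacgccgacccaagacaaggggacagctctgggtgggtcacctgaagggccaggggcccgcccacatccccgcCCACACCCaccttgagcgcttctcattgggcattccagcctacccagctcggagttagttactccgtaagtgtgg
Nanog (chr6:122707239-122707488, plus strand): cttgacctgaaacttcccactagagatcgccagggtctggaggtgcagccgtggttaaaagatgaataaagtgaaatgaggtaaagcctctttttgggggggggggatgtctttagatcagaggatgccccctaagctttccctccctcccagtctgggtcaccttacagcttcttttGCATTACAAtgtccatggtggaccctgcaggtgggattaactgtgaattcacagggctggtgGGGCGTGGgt
Tfcp2l1 (chr1:118627695-118627944, plus strand): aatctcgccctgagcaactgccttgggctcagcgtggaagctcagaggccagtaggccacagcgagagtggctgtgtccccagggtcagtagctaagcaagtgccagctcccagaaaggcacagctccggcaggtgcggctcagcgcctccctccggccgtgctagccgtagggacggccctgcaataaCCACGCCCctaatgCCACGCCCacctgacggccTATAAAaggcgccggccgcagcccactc
Klf4 (chr4:55532476-55532725, minus strand): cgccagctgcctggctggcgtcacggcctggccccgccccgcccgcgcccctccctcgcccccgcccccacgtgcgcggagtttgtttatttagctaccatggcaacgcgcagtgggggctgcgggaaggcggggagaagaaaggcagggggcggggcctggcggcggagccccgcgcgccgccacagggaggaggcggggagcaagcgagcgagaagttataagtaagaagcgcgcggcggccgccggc

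The Zfp42 window held an octamer that began 186 bases before the start site and a KLF box at 75 bases. The Nanog window held the Oct4 and Sox2 core at 72 bases and a KLF box at 10 bases. The Tfcp2l1 window held KLF boxes at 61 and 47 bases and a TATA box at 28 bases, while the Klf4 window matched none of the 6 motifs. A KLF box was found in 5 of the 10 member windows (Nanog with 2 start sites, Nr5a2, Tfcp2l1 and Zfp42) and in 15.9% of all 32851 windows of that length. The 2 Nanog windows overlap and share 1 of these boxes, so they are not separate finds. The octamer was found in 1.60% of all windows, the Oct4 and Sox2 core in 0.648%, the TATA box in 12.4%, and the Esrrb and Stat elements, which no member window held, in 1.33% and 0.913%. The windows also differed in base composition: that of Klf4 was 74.0% G or C with 32 CpG sites, and that of Nanog 52.0% with 3, where the median window had 52.4% and 6. A match is a run of letters and no evidence of binding.

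Library totals ran from 3594551 to 17773138 counts, and WT libraries were 2.07 to 3.35 times as deep as RepB libraries over days 5 to 10 (1.11 times at day 0). Levels are CPM, the usual scaling of counts to the library total, and 3 counts, the limit that a count of 0 allows, correspond to 0.169 to 0.835 CPM. The ES cell markers Pou5f1, Sox2, Utf1 and Tdgf1 summed to 2384 CPM in WT and 2588 CPM in RepB at day 0, and to 166 and 261 CPM at day 10. The 8 markers of fibroblasts were also present at day 0, with sums of 723 (WT) and 819.5 CPM (RepB), were low at day 5 (69.3 and 55.1 CPM), and reached 8980 and 13484 CPM at day 10. The part of feeder RNA in the day 0 levels was not tested. With 1 library per genotype and day, a p for RepB against WT below rests on the spread of that difference between days, and none bears on other cultures or clones.

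Per kilobase of exon, which allows genes to be compared, the network of undifferentiated WT cells was led by Klf4 (382 CPM per kb), Klf2 (379) and Nanog (328). Zfp42 (278), Esrrb (225) and Klf5 (177) followed, and Tbx3 (55.4), Tfcp2l1 (49.4), Prdm14 (28.0) and Nr5a2 (23.1) were the least abundant. RepB cells had the same leading pair at day 0, Klf4 at 485 and Klf2 at 436 CPM per kb, followed by Zfp42 (369), Nanog (342), Klf5 (268) and Esrrb (218). Places that differ by little, such as Klf4 and Klf2 in WT, have no replicate library to set their difference against. Summed over the 10 members, the level per kilobase was 1925 in WT and 2282 in RepB at day 0, 411 and 605 at day 5, and 103 and 140 at day 10. The order was not kept on the way down. At day 5 Nanog alone made up 38.5% of the sum in WT and 36.8% in RepB, and Klf4 had dropped to the 7th and 9th place (6.34 and 6.51 CPM per kb). At day 7 Tbx3 (50.4) and Nanog (49.9) led in WT, and at day 10 Klf5 (19.6) led in WT and Nanog (29.8) in RepB.

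All 10 factors fell from day 0 to days 5 to 10, in WT and in RepB (edgeR quasi-likelihood test, adjusted p at most 1.3e-06 in WT and 1.38e-06 in RepB). Over all 15179 genes tested, 28.3% were lower in WT and 25.0% in RepB. The median log2 change of the members was -3.44 in WT and -2.81 in RepB, against 0.02 and 0.01 over all genes. It ran from -5.18 ± 0.13 (SE) for Klf4 to -2.06 ± 0.17 for Tbx3 in WT, and from -5.43 ± 0.13 to -2.03 ± 0.12, for Nanog, in RepB. In bulk samples fewer cells with a transcript and less of it per cell cannot be told apart.

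**Figure D1:**
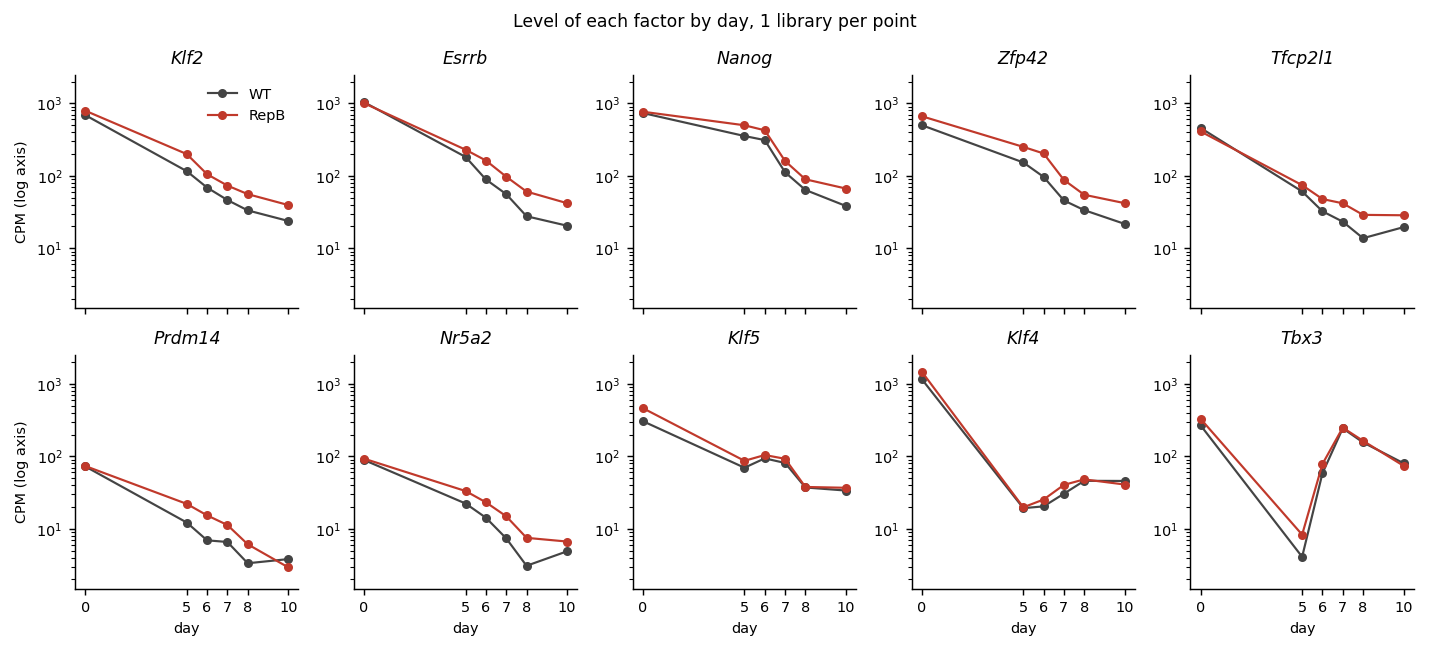
Level of each of the 10 factors by day in WT (grey) and RepB (red), in CPM on a log axis, with 1 library per point. In the first 7 panels the curves fall throughout or nearly so, with RepB above WT at days 5 to 8, while Klf5 has a shoulder at days 6 and 7, Klf4 is lowest at day 5 and Tbx3 returns to 244 and 249 CPM at day 7.

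A group of 7 members had falling slopes over days 5 to 10 without an earlier low or a shoulder. In WT, 4 of them fell at every sampled step, and Tfcp2l1, Prdm14 and Nr5a2 were slightly higher at day 10 than at day 8. Klf2, a zinc finger factor that supports self-renewal beside Klf4 and Klf5, had WT levels of 689, 116, 68.8, 46.4, 33.4 and 23.8 CPM at days 0, 5, 6, 7, 8 and 10. Its RepB levels were 792, 200, 105, 73.4, 55.9 and 39.5 CPM on those days. RepB was the higher line on each day, and neither line showed a rise between any pair of sampled days.

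Esrrb, an orphan nuclear receptor that can stand in for part of the action of Nanog, also fell at each sampled step in both lines. Its WT levels were 1038, 182, 89.0, 55.9, 27.7 and 20.5 CPM, and its RepB levels 1005, 229, 163, 97.3, 60.6 and 41.9 CPM. At day 0 the lines lay close together, and by day 10 WT held 1.97% and RepB 4.17% of the day 0 level.

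Nanog, the homeodomain factor of the naive network, declined late. It was at 736, 354, 311, 112, 63.9 and 38.3 CPM in WT and at 767, 499, 425, 160.1, 89.6 and 66.7 CPM in RepB. At day 5 it retained 48.2% of its day 0 level in WT and 65.0% in RepB, the highest of the 10 members, and its steepest fall came between days 6 and 7. RefSeq lists processed pseudogenes of Nanog (Nanog-ps1 and Nanog-ps2) and of Zfp42 (Zfp42-ps1). How reads that fit several places were counted is not given in the sources used here, so the levels of these genes are uncertain to that extent.

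Zfp42, better known as Rex1 and widely used as a reporter of the naive state, was at 500.3, 153, 96.7, 45.7, 33.6 and 21.7 CPM in WT. In RepB it was at 665, 251, 204, 87.8, 54.8 and 41.9 CPM. The RepB level at day 6 lay above the WT level at day 5.

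Tfcp2l1, a Stat3 target of the grainyhead family, fell from 458 to 60.9, 32.4, 23.3 and 13.8 CPM in WT and was at 19.6 CPM at day 10. In RepB it went from 410.1 to 74.4, 47.9, 41.8, 28.9 and 28.6 CPM. RepB was below WT at day 0 and above it on the 5 later days.

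Prdm14, which represses differentiation and DNA methylation genes, was at 72.7, 12.2, 6.94, 6.58, 3.35 and 3.82 CPM in WT, and at 73.6, 22.1, 15.3, 11.3, 6.12 and 2.94 CPM in RepB. The last values rest on 39 counts in WT and 11 in RepB, and day 10 was the single day on which WT was higher. Nr5a2, a nuclear receptor that can activate Pou5f1, was at 89.1, 22.3, 14.2, 7.39, 3.09 and 4.90 CPM in WT and at 92.9, 33.2, 23.2, 14.9, 7.51 and 6.67 CPM in RepB. Its lowest library held 24 counts (WT, day 8). These are the least abundant members, and their counting errors are correspondingly the widest.

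The remaining 3 members took other courses. Klf5, a KLF factor with roles in the epiblast and in trophectoderm, was at 306, 69.7, 93.8, 81.1, 37.2 and 33.7 CPM in WT and at 463, 86.8, 104, 92.6, 37.8 and 36.8 CPM in RepB. It was higher at days 6 and 7 than at day 5 in both lines and then fell. Klf4, the LIF and Stat3 target used in reprogramming, was at 1164, 19.3, 20.4, 30.5, 46.0 and 45.8 CPM in WT and at 1475, 19.8, 25.4, 40.4, 48.1 and 40.8 CPM in RepB. At day 5 it held 1.66% of its day 0 level in WT and 1.34% in RepB, and in both lines all later libraries were above the day 5 library.

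Tbx3, a T-box repressor, had the widest swing. It was at 268, 4.11, 58.4, 244, 156 and 80.3 CPM in WT and at 329, 8.31, 78.4, 249, 164 and 73.9 CPM in RepB. It thus held 1.53% and 2.52% of its day 0 level at day 5, but 91.0% and 75.5% at day 7. The day 5 values rest on 73 and 44 counts. Its paralog Tbx2 was at 2.37 CPM at day 0 and 0.506 CPM at day 5 in WT, 33.7 CPM at day 7 and 94.6 CPM at day 10, and rose over days 5 to 10 (log2 slope of 1.30 ± 0.34 per day, edgeR adjusted p = 0.0104).

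Some markers of other cell types moved with the return of Tbx3 and others did not. In WT the endoderm factor Gata6 was at 1.74 CPM at day 5, 59.4 CPM at day 6 and 88.1 CPM at day 7, and Kdr, a receptor of early mesoderm and endothelium, at 2.48, 72.1 and 215 CPM. In RepB Gata6 was at 1.51, 49.0 and 76.1 CPM and Kdr at 4.15, 72.7 and 231 CPM on those days. Over the whole lists, the 8 markers of primitive and visceral endoderm summed to 37.9 CPM at day 5 and 311 CPM at day 7 in WT and to 30.0 and 303 CPM in RepB. The 5 endothelial markers summed to 75.4, 110.1 and 245 CPM at days 5, 6 and 7 in WT and to 94.8, 142 and 288 CPM in RepB. Within that list Pecam1 went the other way, from 64.4 CPM at day 5 to 21.4 CPM at day 7 in WT and from 84.0 to 42.4 CPM in RepB, and Tek was at 6.70, 5.27 and 4.45 CPM on days 5, 6 and 7 in WT. The 4 epithelial markers summed to 1973 and 2050 CPM at days 5 and 7 in WT and to 1696 and 2432 CPM in RepB. Within these sums, Krt8 rose from 87.9 to 582 CPM and Krt18 from 203 to 771 CPM in WT. Cdh1 fell from 1402 to 574 CPM and Epcam from 280 to 123 CPM in WT, and all 4 markers moved the same way in RepB. Their part in the course of Tbx3, Klf4 or Klf5 was not tested.

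The changes between neighbouring days were tested in the same fit, as the mean of both lines, a test chosen after the values were seen. From day 0 to day 5 all 10 members fell, where 23.7% of all genes did. Klf4 (log2 -6.04 ± 0.18) and Tbx3 (-5.72 ± 0.24) fell by far more than Nanog (-0.82 ± 0.12, adjusted p = 0.00024, edgeR), and the other 7 members by 1.54 to 2.65 on the log2 scale. Pou5f1 did not pass the test over this step (log2 0.33 ± 0.16, edgeR adjusted p = 0.105), and Sox2 fell by 0.68 ± 0.13.

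From day 5 to day 6, Klf2, Esrrb, Zfp42 and Tfcp2l1 fell, where 1.77% of all genes did, and Tbx3 rose (log2 3.60 ± 0.23), where 4.02% of genes did. From day 6 to day 7, Klf2, Esrrb, Nanog, Zfp42 and Nr5a2 fell (3.26% of genes), with the largest falls in Nanog (log2 -1.39 ± 0.13) and Zfp42 (-1.09 ± 0.13). In the same step Klf4 (0.68 ± 0.16) and Tbx3 (1.92 ± 0.18) rose (5.71% of genes).

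From day 7 to day 8, 6 members fell (5.85% of genes) and 0 rose (5.98% of genes) by edgeR, though Klf4 had a log2 of 0.46 ± 0.16 at an unadjusted p of 0.0134. Those that fell were Klf5, with the largest change (log2 -1.18 ± 0.13), Esrrb, Nanog, Zfp42, Tbx3 and Nr5a2. From day 8 to day 10, Klf2, Nanog, Zfp42 and Tbx3 fell (9.36% of genes) and 0 members rose (11.1% of genes) by edgeR, 0 of them at an unadjusted p under 0.05. DESeq2 called 2 members in this step. Tbx3 changed most in this last step (-1.02 ± 0.18). Nanog and Zfp42 were thus called in each of the last 3 steps, and Prdm14 in none after day 5.

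**Figure D2:**
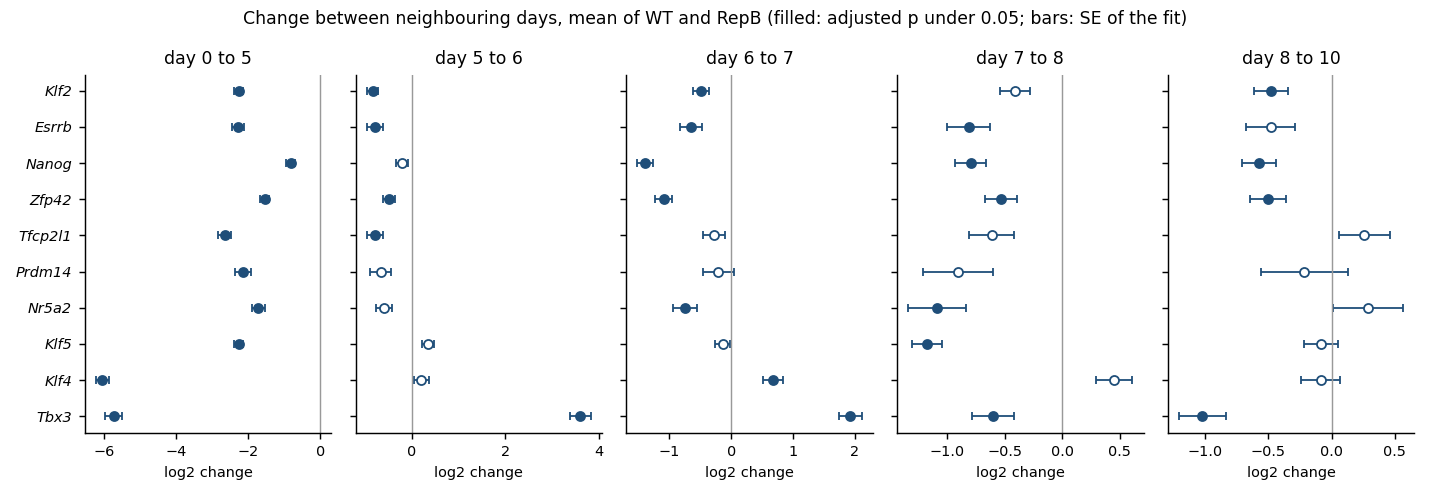
Change of each factor between neighbouring sampled days, as the log2 mean of both lines with the SE of the fit, on a scale of its own in each panel. Filled points passed the test. Klf4 and Tbx3 lie far to the left in the step from day 0 to day 5, and Tbx3 lies at 3.60 and 1.92 in the next 2 steps.

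Fitted as straight lines over days 5 to 10, the slopes of 9 members were called, where those of 52.9% of 12948 genes were. A total of 8 members fell, where 25.9% of genes did, and Klf4 rose. The slope of Nanog was the steepest, at a log2 of -0.65 ± 0.07 per day (edgeR adjusted p = 0.000101), followed by Esrrb (-0.55 ± 0.05) and Zfp42 (-0.54 ± 0.06). Klf4 had a slope of 0.29 ± 0.06 (adjusted p = 0.00249). Tbx3, which rose and then fell, had a slope of 0.44 ± 0.41 that did not pass (adjusted p = 0.383). Its slope was 1.62 without day 10 (adjusted p = 0.0195) and -0.14 without day 5. Klf5 was not called without day 10 (slope -0.29, adjusted p = 0.144), nor Tfcp2l1 without day 5 (-0.17, adjusted p = 0.0915).

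RepB cells held more RNA of 7 of the 10 factors than WT cells of the same day over days 5 to 10, and of none less. Zfp42 was 1.87-fold higher (log2 0.90 ± 0.09, edgeR adjusted p = 0.0016), Esrrb 1.77-fold, Prdm14 1.74-fold, Nr5a2 1.70-fold, Klf2 1.66-fold, Tfcp2l1 1.57-fold and Nanog 1.48-fold. Of all genes tested 1.51% were higher in RepB. The 7 include the 4 that fell at every sampled step in WT, and 3 members were not called: Tbx3 (log2 0.22 ± 0.12, edgeR adjusted p = 0.441), Klf5 (0.19 ± 0.08, adjusted p = 0.288) and Klf4 (0.16 ± 0.10, adjusted p = 0.521). The median over the 10 members was 0.69, against -0.002 over all genes.

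The difference was present day by day, in ratios on library totals adjusted by the TMM factors of the fit. RepB was the higher line in 10 of 10 members at days 5, 6, 7 and 8, in 7 at day 10 and in 9 at day 0. Esrrb counts among the 9 at a log2 of 0.02, though its CPM at day 0 were lower in RepB (1005) than in WT (1038). The median log2 ratio was 0.54, 0.59, 0.74 and 0.81 at days 5 to 8, 0.50 at day 10 and 0.20 at day 0. Klf2, Esrrb, Nanog, Zfp42 and Tfcp2l1 were higher in RepB on all 5 days, each day with a 95% counting interval above 0. The shares of all genes that met these conditions on single days were not computed. With 1 library per line and day, members that move together are not separate observations. For Zfp42 the log2 ratio lay between 0.72 (day 5) and 1.07 (day 6), and for Klf2 between 0.61 (day 6) and 0.83 (day 8).

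Esrrb had a ratio of 0.33 at day 5, which was the smallest, and of 0.87, 0.82, 1.22 and 1.04 over days 6, 7, 8 and 10. Tfcp2l1 (0.29 at day 5, 1.16 at day 8) and Nr5a2 (0.58 at day 5, 1.37 at day 8) also had their widest gap at day 8, the day of the shallowest RepB library. Prdm14 went from 0.86 at day 5 and 1.14 at day 6 to -0.37 at day 10, and its counting interval ran from -1.49 to 0.62. Tbx3 had a ratio of 1.02 at day 5, at its low point, and 0.05 at day 7, at its peak.

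**Figure D3:**
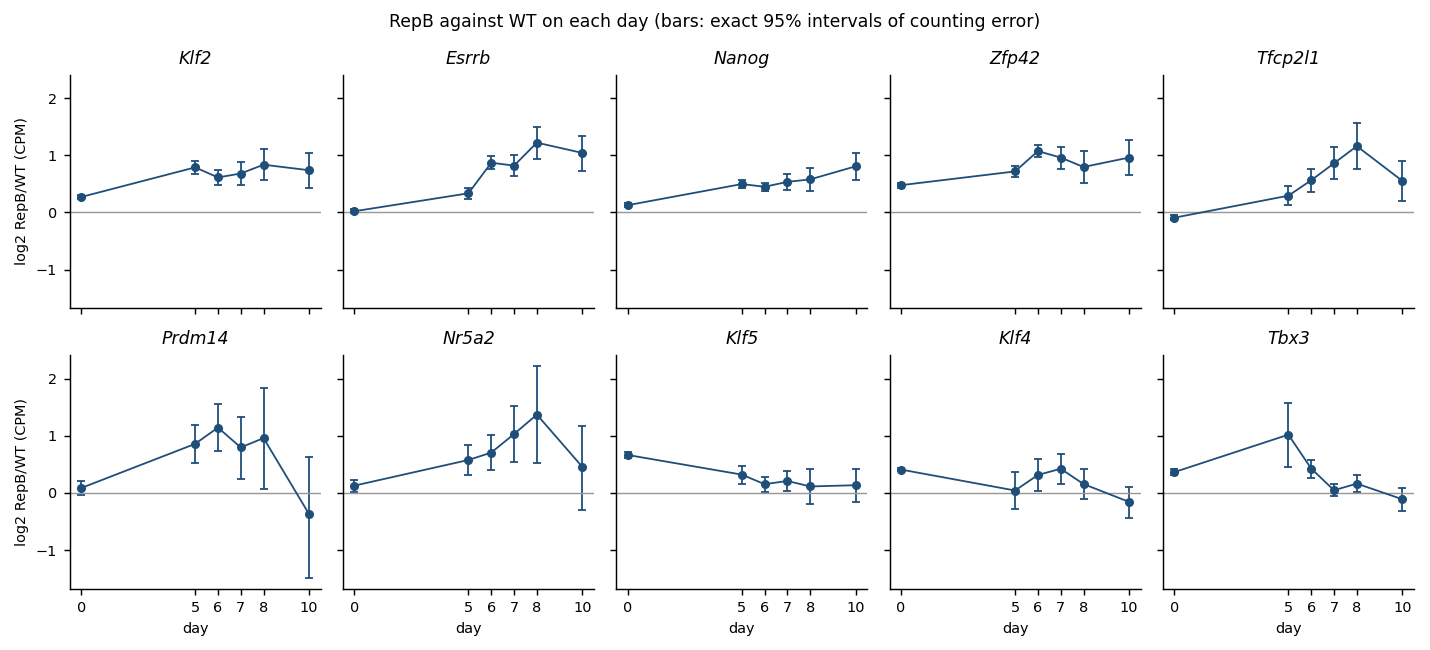
The log2 ratio of RepB to WT on each day for the 10 factors, with exact 95% intervals that cover counting error only. The axis label reads CPM, but the library totals were adjusted by TMM. Klf2, Esrrb, Nanog, Zfp42 and Tfcp2l1 stay above 0 on the 5 days of differentiation, while Klf4, Tbx3 and Prdm14 lie below 0 at day 10.

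For the 4 members that fell at every sampled step in WT, the RepB level can be placed on the WT curve by interpolation of log2 CPM between days. The RepB levels of Klf2, Esrrb, Nanog and Zfp42 at day 7 matched WT levels 0.35 to 1.12 days earlier (median 1.00). At day 8 the lag was 0.60 to 1.47 days (median 1.21) and at day 10 it was 2.08 to 2.72 days (median 2.55). The lags at days 5 and 6 (medians 1.81 and 1.52 days) fall partly in the gap between days 0 and 5, where no library was taken. A lag in days also depends on how steep the WT curve is, so a longer lag is not a wider gap. Zfp42 had a log2 ratio of RepB to WT of 0.96 at day 7 and at day 10, with lags of 0.87 and 2.72 days. Any difference already present at day 0 is counted in the lags as well. These are descriptions of 1 course per line.

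The call rests on the days as blocks. Without a day term 0 members passed (0 at an unadjusted p under 0.05 in edgeR), and leaving out a day left 3 (day 7), 4 (day 6), 6 (days 5 and 10) or 7 (day 8). Klf2, Esrrb and Zfp42 were called whichever day was left out. With counts thinned to the depth of the shallowest library 6 members were called, Prdm14 being lost (log2 0.74, edgeR adjusted p = 0.0569).

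At day 0, 0 members were called between the lines by edgeR or DESeq2, where 0.0725% of all genes were by edgeR. At an unadjusted p under 0.05, edgeR gave 2 members, Klf5 and Zfp42, and 935 of all 15179 genes. Klf5 had the highest ratio at day 0 (log2 0.66 ± 0.16, adjusted p = 0.35), Zfp42 stood at 0.48 ± 0.18 (adjusted p = 0.714), and Tfcp2l1 was the single member below 0 (-0.09 ± 0.23). The difference over days 5 to 10 less that at day 0 was called in 0 members by edgeR and 0 by DESeq2, where 0.0329% of all genes were called. At an unadjusted p under 0.05, edgeR gave 7 members, with Klf5 negative among them, and 1345 of all 15179 genes. This change was largest for Esrrb (0.81 ± 0.26, adjusted p = 0.425) and Tfcp2l1 (0.74 ± 0.26, adjusted p = 0.459), and negative for Klf5 (-0.47 ± 0.18), Klf4 (-0.25 ± 0.22) and Tbx3 (-0.14 ± 0.27). Day 0 had 1 library per line and a RepB term of its own, so it adds nothing to the spread. Both tests take their spread from days 5 to 10. So a larger difference after than before differentiation was not shown for any member.

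The rates of decline did not pass a test of their difference either. The slopes of RepB and WT differed in 0 members by edgeR and 0 by DESeq2 (0 at an unadjusted p under 0.05), and in 0.0% of the 12948 genes tested (200 at an unadjusted p under 0.05). The difference was -0.24 ± 0.12 per day for Prdm14 and 0.13 ± 0.10 for Esrrb, and between -0.13 and 0.07 for the other 8. The slope fit had no term for each day, so departures from a straight line that both lines share stay in its spread. That makes this test less able to find a difference. A missed threshold does not show that the rates are alike.

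Over all 15179 genes tested, 229 were higher in RepB over days 5 to 10 and 117 lower. Of 11 other genes of the naive state, 9 were higher and 0 lower, with a median log2 of 0.62. They were Dppa5a (1.17 ± 0.22), Dppa3 (0.91 ± 0.18), Tdh (0.85 ± 0.09), Fbxo15, Tcl1, Fgf4, Nr0b1, Spp1 and Lefty1 (0.48 ± 0.10). Tdh, a threonine dehydrogenase on which mouse ES cells depend, had a level of 325 CPM (WT) and 420.2 CPM (RepB) at day 0 and of 61.3 and 132 CPM at day 6. Dppa3, a maternal and germline protein also known as Stella, rose at first, from 23.7 to 47.3 CPM in WT and from 18.1 to 69.5 CPM in RepB between days 0 and 5. Leaving out day 6 or day 7 brought the count of called genes in this list to 1, and leaving out day 10 to 3. It was 2 with 1 genotype effect over all 6 days and 6 at equal depth, and 0 passed without a day term.

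Of the 9 genes of the LIF and Stat3 pathway 0 were called in either direction by edgeR or DESeq2 (2 and 1 at an unadjusted p under 0.05, median log2 0.08). By edgeR 346 of all 15179 genes were called, a share at which 0 of 9 decides little. Among the 9 were Ptpn11 (0.00), Il6st, the shared receptor gp130 (0.27 ± 0.12), and Socs3, the feedback inhibitor of the pathway (-0.20 ± 0.08). Socs3 followed Klf4 in shape, with 345, 38.2, 39.9, 58.7, 86.4 and 85.7 CPM in WT over the 6 days. Pou5f1 (0.33 ± 0.10, edgeR adjusted p = 0.128), Sox2 (0.32 ± 0.09, adjusted p = 0.0826) and Sall4 (-0.16 ± 0.08, adjusted p = 0.398) were not called, though Sox2 was by DESeq2. At day 5 the level of Pou5f1 was still 1001 CPM (WT) and 1194 CPM (RepB).

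At 346 of all 15179 genes called by edgeR in either direction, 0 calls in lists as short as the next ones decide little. Of 12 regulators of the exit from the naive state and the formative state, 0 were called in either direction by edgeR or DESeq2 (5 and 4 at an unadjusted p under 0.05), and their median was -0.22. Without day 5 or day 8, or without the filter on low counts, 1 was called lower. The most abundant were Tcf7l1 (-0.28), a repressor of naive genes, Sox4 (-0.22) and Etv5 (0.14). Fgf5, the marker of the formative epiblast, went from 0.474 CPM at day 0 to 206 CPM at day 5 in WT and from 0.131 to 208 CPM in RepB. Of 5 genes that Prdm14 is known to repress or that act with them in DNA methylation, Dnmt3l was higher in RepB (0.78 ± 0.12, edgeR adjusted p = 0.00691, not called without day 7 or with 1 genotype effect over all 6 days), and Dnmt3b (-0.37 ± 0.12, adjusted p = 0.156), Dnmt3a, Fgfr1 and Fgfr2 were not called. Of 21 paralogs of the members 18 were tested and 0 called by edgeR or DESeq2 (3 by each at an unadjusted p under 0.05), with Klf6, Ubp1 and Yy1 the most abundant.

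Markers of other cell types moved with the difference in part. Over all 15179 genes tested by edgeR, 229 were higher in RepB and 117 lower. Of 8 fibroblast markers, Col3a1 (log2 1.04 ± 0.24) and Postn (1.35 ± 0.31) were higher in RepB. In that list 0 were called without day 6 or day 7, without X-linked genes, or with 1 genotype effect over all 6 days. The list summed to 69.3 to 8980 CPM in WT and 55.1 to 13484 CPM in RepB over days 5 to 10. Of 6 germ cell markers, Tfap2c (0.62 ± 0.11) and Dazl (1.15 ± 0.26) were higher, with sums of 34.2 to 109 CPM in WT and 59.5 to 139 CPM in RepB. Among these 6, 0 were called without day 6, 7 or 10, or with 1 genotype effect over all 6 days. Of 5 endothelial markers Pecam1, which ES cells also carry, was higher (0.82 ± 0.12, not called without day 7 or with 1 genotype effect over all 6 days). Of 8 endoderm markers Ttr was higher (0.97 ± 0.18, not called without day 7, 8 or 10). No trophoblast, cardiac or epithelial marker was called by edgeR (3 at an unadjusted p under 0.05) or DESeq2, and in no list was any marker at 0 in all 5 differentiated libraries of a line. All 4 cardiac markers lay below 0 (median log2 -0.59), and without the low-count filter 1 was called lower. The median log2 was 0.66 for endothelial, 0.60 for germ cell and 0.48 for fibroblast markers. It lay between -0.10 and 0.08 for endoderm, trophoblast and epithelial markers. The part of these cells in the difference was not tested.

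**Figure D4:**
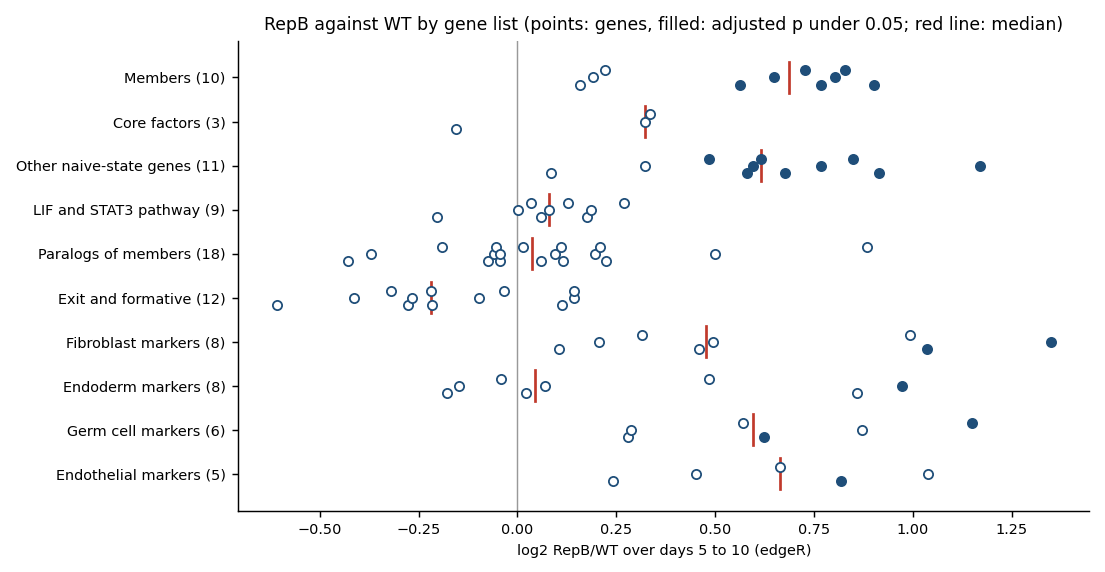
RepB against WT over days 5 to 10 (log2, edgeR) for the 10 members and 9 lists, with each gene as a point, filled where it passed the test, and the list median as a red line. The members (median 0.69) and the other naive-state genes (0.62) lie to the right. So do the endothelial (0.66), germ cell (0.60) and fibroblast markers (0.48). The exit and formative genes (-0.22) lie to the left with none called, and the cardiac markers (-0.59) are not drawn.

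The courses of the members were compared by Pearson correlation of log2 CPM over the 12 libraries, which share day, line and depth. The 7 declining members were grouped by their course in these same libraries. A high r among them, and a lower one with the other members, follows in part from that grouping. Among the 7 declining members the 21 pairs had an r of 0.83 to 0.99 (median 0.97), with Klf2 and Esrrb the closest (0.99). Klf5 correlated with them at 0.85 to 0.94 and Klf4 at 0.41 to 0.81. Tbx3 had an r of -0.18 to 0.12. Over the 10 libraries of days 5 to 10 the 7 kept an r of 0.84 to 0.98, while Klf4 stood at -0.89 to -0.69 and Tbx3 at -0.68 to -0.50 against them.

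Of 11450 genes ranked, those with the highest mean correlation with the 10 members were Tcl1 (0.86), Cdca2 (0.85), Spp1 (0.85), Tex14 (0.85) and Hsd17b14 (0.85). The best single matches were Mybl2 for Klf2 (0.99), Tex14 for Esrrb (0.996), Lefty2 for Nanog (0.99), Rbmxl2 for Zfp42 (0.998), Rfx2 for Tfcp2l1 (0.99), Hormad2 for Prdm14 (0.98) and Kat2b for Nr5a2 (0.99). Klf5 was nearest to Prkar2a (0.98), Klf4 to Ngfr (0.99) and Tbx3 to Hs3st3b1 (0.94). Hs3st3b1, a heparan sulfate sulfotransferase gene, was at 20.4, 1.69, 16.3, 33.7, 25.2 and 13.8 CPM in WT, with the same low at day 5 and high at day 7 as Tbx3.

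Reads over strain variants allow the alleles to be told apart, as counts named cas and mus in the table, which were taken to stand for CAST/Ei and 129/Sv/Jae. At day 0, with both lines summed, Klf2 (56.9%), Zfp42 (58.4%) and Tbx3 (40.2%) were read from both alleles, and so were the genes within 2 Mb of them (median cas share 65.1%, 60.9% and 49.7%). The other 7 were read mostly as mus: Klf4 at 18.3% cas, Klf5 at 5.33%, Nr5a2 at 3.58%, Nanog at 3.42%, Tfcp2l1 at 1.95%, Prdm14 at 0.397% and Esrrb at 0.357%. Genes within 2 Mb of these 7 had median shares of 0.280% to 1.09%. Klf4 stood out from its 11 informative neighbours, which had a median of 0.324% and a highest share of 1.68%. Klf5 also lay above its 5 informative neighbours (median 0.280%, highest 2.62%). Single neighbours reached 52.9% near Esrrb, 47.2% near Prdm14 and 56.6% near Nr5a2.

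The cas share of Klf4 was 17.8% (16.6 to 19.0, 95% interval) in WT and 18.6% (17.5 to 19.8) in RepB at day 0. It lay between 20.5% and 37.5% in the later libraries, which held 26 to 129 allelic counts each. Tbx3 went from 39.3% (36.6 to 42.1) at day 0 in WT to 56.4% (49.3 to 63.4) at day 6 and 55.8% (52.2 to 59.4) at day 7. In RepB it went from 41.1% (38.5 to 43.7) to 57.6% (48.9 to 65.9) and 49.8% (43.8 to 55.8). The intervals of days 0 and 7 did not overlap in either line, so the RNA of the Tbx3 peak was split between the alleles in another ratio than that of day 0, as far as counting error goes. The cas share of Klf5 took opposite courses in the lines, on few allelic counts. In RepB it fell from 29.1% (17.6 to 42.9) at day 5 to 13.6% at day 6 and 2.70% at day 7. It was 0 of 15 counts at day 8 and 0 of 12 at day 10. In WT it was 3.73% (1.22 to 8.49) at day 5 and 2.82% (0.773 to 7.06, 4 of 142 counts) at day 6. It then stood at 20.2% at day 7, 39.3% (21.5 to 59.4, 11 of 28 counts) at day 8 and 30.8% at day 10. The intervals of the lines did not overlap at days 5 and 6 and did at days 7, 8 and 10. In WT those of days 6 and 8 did not overlap. The intervals are exact Clopper-Pearson intervals and cover counting error only.

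Between the lines the allele shares over days 5 to 10 were called in 0 of 10 members (edgeR on cas and mus counts, 1 member at an unadjusted p under 0.05), where 2.24% of the 10332 genes tested were called. Esrrb, Prdm14 and Tfcp2l1 were at most 2.31% cas in either line, so the test could decide little for them. The SE of the log2 odds was 0.84 for Esrrb and 2.32 for Prdm14. The test takes 1 difference over days 5 to 10, so the opposite courses of Klf5 do not show in it. Nanog had the lowest adjusted p (log2 odds 0.40 ± 0.19, adjusted p = 0.72), at 5.31% cas in WT and 6.42% in RepB. Zfp42 was at 57.0% in WT (55.1 to 58.8) and 54.1% in RepB (51.9 to 56.4), Tbx3 at 56.6% and 51.2%, and Klf2 at 66.9% (63.8 to 69.8) and 64.0% (59.8 to 68.1).

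**Figure D5:**
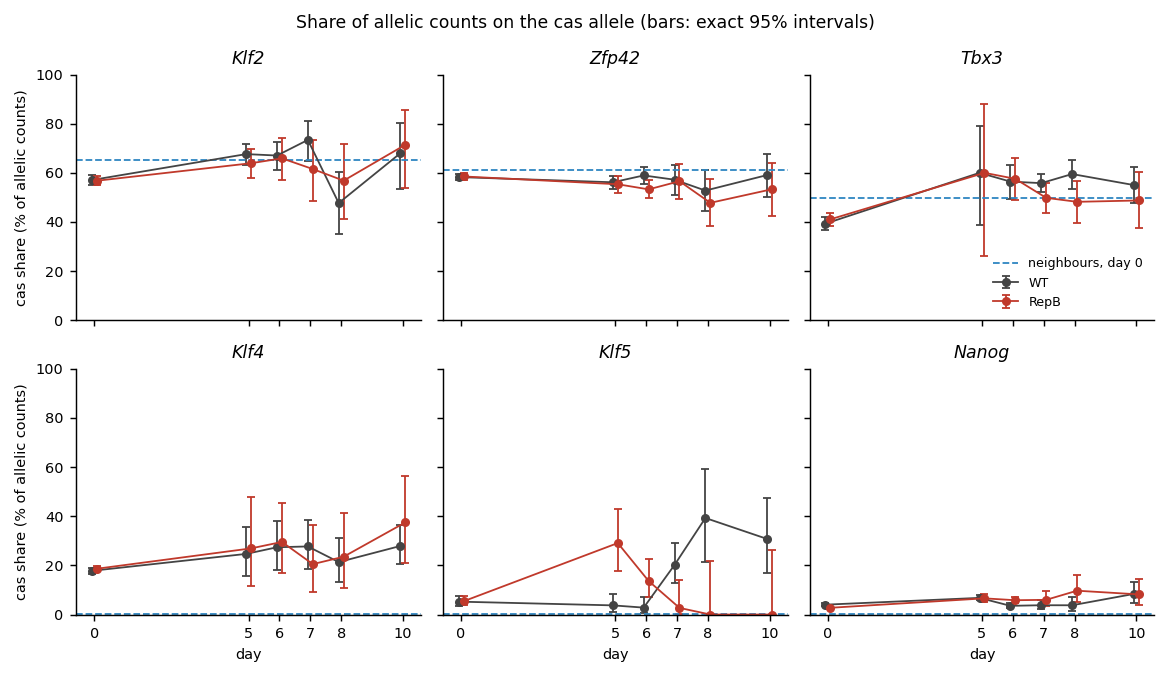
Share of allelic counts on the cas allele for 6 factors by day in WT (grey) and RepB (red), in percent, with exact 95% intervals, and the median of neighbouring genes at day 0 as a dashed line. Klf2, Zfp42 and Tbx3 are read from both alleles, and Klf4 stays at 17.8% or above where its neighbours lie at 0.324%.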

How the data were processed

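PolyA RNA was measured in 12 libraries, 1 per line and day. The authors deposited counts per gene without normalization, per the file headers, in total and, in separate columns, for the alleles named cas and mus. The other deposited unit is the summed exon length of a gene in bases. The submitters' processing notes name the build mm9 and the tools featureCounts, TopHat, Novoalign, bedtools and SAMtools, with no version and no role. The library kit was directional, per the labels, but the strand setting of the counting is not given in the sources used here. A further 6 columns matched no RNA sample and were not used.

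From the counts, CPM were computed on the library totals, and the daily ratios of RepB to WT on totals adjusted by TMM. edgeR 4.0.16 (R 4.3.3) was run on the whole table with TMM, filterByExpr on genotype-by-stage groups, the quasi-likelihood F test and Benjamini-Hochberg adjustment at 0.05 over all genes tested. The model held a term for each day and RepB terms for day 0 and for days 5 to 10 (4 residual degrees of freedom). The tests against day 0 and between days used this fit, so their spread is that of the difference between the lines over days. Slopes came from the 10 later libraries (6 degrees of freedom), and allele shares from cas and mus counts of genes with a mean of at least 20 (4 degrees of freedom). SE is the size of the log2 change over the root of F. The fits were tested on simulated data. The members, lists and rules were chosen with earlier results of these data known, and the steps between days were added after values were seen. All members are named in each comparison, and of a list the genes past the threshold or else up to 3 with the highest mean CPM. The genes nearest to the members are the 5 with the highest mean correlation and the best match of each, among named genes whose log2 CPM averaged 2 or more. Others named from lists or beside a course were chosen after values were seen. Alternatives were RLE size factors, no low-count filter, DESeq2 1.42.0, each day left out, counts thinned to equal depth, no X-linked genes, and other day, genotype and allele terms. Depth limits precision as counting error, for which exact 95% intervals are given. Where nothing says the libraries came from separate cultures, p-values measure the spread between these libraries.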

Additional observations from a re-analysis of the deposited data

How the results depend on the processing

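The count of 7 members higher in RepB stayed at 6 or 7 with RLE size factors, no low-count filter, DESeq2, equal depth or no X-linked genes. It was 4 with 1 genotype effect over all 6 days, 0 without a day term, and 3 to 7 over the days left out. All 10 members stayed lower than at day 0 in each line under every alternative run. By edgeR, the counts of 0 for the difference less that at day 0, the difference of slopes and the allele share stayed at 0 under every alternative run. Few cas reads in several members limit what the last of these counts can show. The slope count was 8 or 9.

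Of the steps between days, day 6 against day 5 gave 4 to 8 members over the days left out (8 without day 8). Day 7 against day 6 gave 4 at equal depth and 4 to 7 over the days left out (4 without day 10). Day 10 against day 8 gave 2 with DESeq2, 2 at equal depth and 2 to 5 over the days left out (2 without day 7). These steps were chosen after seeing the data. The slope of Tbx3 turned from 0.44 to -0.14 without day 5 and ranged from -0.14 to 1.62.

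Differences of slope near 0 changed sign. Over the days left out they ranged from -0.0082 to 0.0362 for Klf2, -0.13 to 0.04 for Klf4, -0.0288 to 0.0404 for Zfp42, -0.0097 to 0.28 for Tfcp2l1 and -0.0754 to 0.2479 for Nr5a2. At equal depth they were 0.0049 for Klf5 and 0.107 for Nr5a2, and with the order of days as the number 0.0189 for Nr5a2. The allele log2 odds of Klf4 ranged from -0.0236 (without day 10) to 0.2982. The cause of these changes was not tested. Over all genes the count called between the lines was 346, and 592 without the low-count filter, 225 at equal depth, 198 without X-linked genes, 50 with 1 genotype effect, 0 without a day term (297 at an unadjusted p under 0.05, edgeR) and 38 (day 7) to 744 (day 8) over the days left out. The fit with a term for each day already pairs the lines by day, and no replicate number adds a pairing to it. The slope fit has no such term and does not pair them. Depth limits Prdm14 and Nr5a2 most, with 11 to 50 counts in each library of days 8 and 10.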
